A study of Mus musculus with 27 samples.

Results

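Dural macrophages of Rag1 ko mice that had received IL22 ko T cells were compared with those of Rag1 ko mice that had received IL6Ra ko/IL21R ko T cells. The comparison uses 9 of the 27 libraries of the series: the 3 of the IL22 ko group (2 from females, 1 from males) and 6 of the 7 of the IL6Ra ko/IL21R ko group (3 from females, 3 from males). They were chosen by the group in their labels and by library type, taken as 10000 to 20000 summed CPM (counts scaled to a library size of 1e+06) of ribosomal protein genes. The 9 libraries held from 11757 to 15229 such CPM, and the IL6Ra ko/IL21R ko library left out, M4, held 7914. All mice were B6 animals of 16 to 19 weeks with the Rag1 ko genotype, so the hosts formed neither T nor B cells. Other lymphoid cells of the host, such as natural killer cells, do not depend on Rag1. Both groups were studied 6.5 weeks after T cell transfer, and the knockouts were in the transferred T cells only. The macrophages therefore carried intact genes for IL-22, IL-6Ra and IL-21R. The series has 7 groups in all; 2 of the others, mice without T cells and mice given total B6 T cells, each hold 2 libraries of the same type and are shown beside the results. Libraries are named by group, sex and a running number. Whether a library comes from 1 animal or a pool is not given in the labels, and the column names of IL22 ko M1 and IL6Ra ko/IL21R ko M2 can be read as naming a pair of animals.

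IL-22 is a cytokine made by T helper 17 and T helper 22 cells and by innate lymphoid cells. Its receptor is a pair of Il22ra1 and Il10rb and is known from epithelial and stromal cells rather than from blood-derived cells. IL-6 and IL-21 signal in naive CD4 T cells through STAT3 and favour the T helper 17 fate, so T cells without their receptors are used as donors that form few T helper 17 cells. T cells that lack IL-22 can still make IL-17 and interferon-gamma. Dural macrophages lie in the outer layer of the meninges. Resident ones, called border macrophages, carry Mrc1, Cd163 and Lyve1, and others derive from blood monocytes. Interferon-gamma is the main T cell signal that raises antigen presentation and guanylate-binding proteins in macrophages.

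The 9 libraries held from 10367421 to 16471442 counts and had counts for 14879 to 17015 genes. The share of mitochondrial transcripts was 3.05%, 3.21% and 2.21% in IL22 ko F1, F2 and M1 and lay between 2.78% and 3.47% in the IL6Ra ko/IL21R ko libraries. The macrophage genes Adgre1 and Csf1r were abundant in every library, with 20049 to 32807 counts of Adgre1. Il17a, Il22, Il22ra1 and Ly6g had 0 counts in all 9 libraries, and a count of 0 allows up to 3 counts, or 0.182 to 0.289 CPM, for counting error only. The T cell genes Cd3e and Trac had from 0 to 11 and from 0 to 3 counts. Within a group, each pair of libraries differed by more than counting noise (chi-square per degree of freedom 8.97 to 52.5).

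Among the genes that passed the test, members of the interferon-gamma response (such as Gbp2), of antigen presentation (Tap1), of the interleukin-1 family (Il1a and Il1rn) and of glucose uptake (Slc2a1) were higher in macrophages of mice given IL22 ko T cells, and a smaller set with Jun and Txnip was lower. No gene passed when IL22 ko M1 was left out and the other 8 libraries were fitted, and 13 passed when females alone were fitted. These are not separate checks. Without IL22 ko M1 the sex term takes up the remaining males, all of the IL6Ra ko/IL21R ko group. Both fits therefore compare the females of the groups, and the males in the former add only to its estimate of spread. Of 12419 genes tested with edgeR's quasi-likelihood test, with sex as a term, 92 passed an adjusted p (Benjamini-Hochberg, here q) under 0.05, which is 0.741% of genes. Of these, 81 were higher with IL22 ko T cells (0.652%) and 11 lower (0.0886%), and 90 were protein-coding. Scaling by library totals alone in place of TMM gave 42 genes above and 14 below. At an unadjusted p under 0.05 there were 1607 genes (12.9%), with 975 higher (7.85%) and 632 lower (5.09%). All 3 IL22 ko libraries lay above all 6 IL6Ra ko/IL21R ko libraries in 469 genes (3.78%) and below them in 311 (2.5%). The median log2 fold change of all genes was -0.00, and 49.7% of genes had a value above 0. The counts of each list below are to be set beside these shares. Throughout, a log2 fold change is the IL22 ko group relative to the IL6Ra ko/IL21R ko group and is given ± SE, and values of the IL22 ko group are in the order F1, F2, M1.

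**Figure D1:**
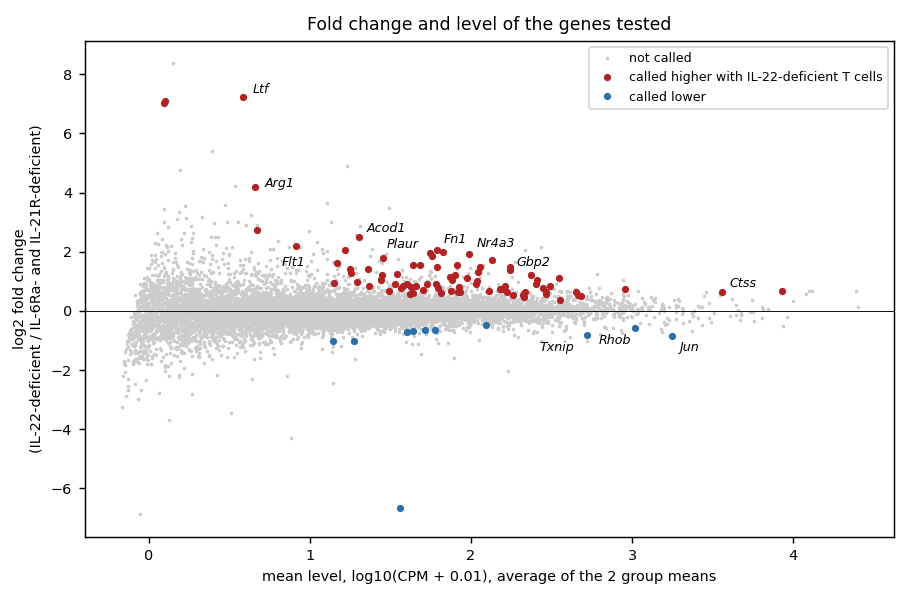
Log2 fold change of the 12419 genes tested (vertical axis, IL22 ko relative to IL6Ra ko/IL21R ko) against their mean level (horizontal axis, log10 of CPM + 0.01). The 81 genes called higher are red and the 11 called lower blue; Ltf and Arg1, at low mean levels, have large fold changes with most of their counts in IL22 ko M1, and the blue point near -6.66 is Gm10800, a predicted gene.

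The count of calls rested on single libraries. It was 0 without IL22 ko M1, with 773 genes at an unadjusted p under 0.05 (6.21% of 12453) and a lowest q of 0.193. It was 3 without IL22 ko F1 and 92 without IL22 ko F2. Leaving out IL6Ra ko/IL21R ko F1, F2, F3, M1, M2 and M3 in turn gave 19, 49, 81, 17, 247 and 23. Females alone (2 against 3 libraries, again without IL22 ko M1) gave 13 (0.105%), of which 9 were among the 92. The fit without IL22 ko M1 rests on the same group difference between females. Its males all belong to the IL6Ra ko/IL21R ko group and are taken up by the sex term, so they bear only on the estimate of spread. IL22 ko M1 was the highest of all 9 libraries in 74 of the 81 genes called higher, and IL6Ra ko/IL21R ko M2 was the highest of its 6 in 39 of them. Of the 92 genes, 88 could be tested without IL22 ko M1; all 88 had the same sign there and an unadjusted p under 0.05, in libraries that had also served to call them. Of the 92 calls, 34 had a q above 0.045. Unless a library is said to be left out, every q printed with a gene comes from all 9.

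**Figure D2:**
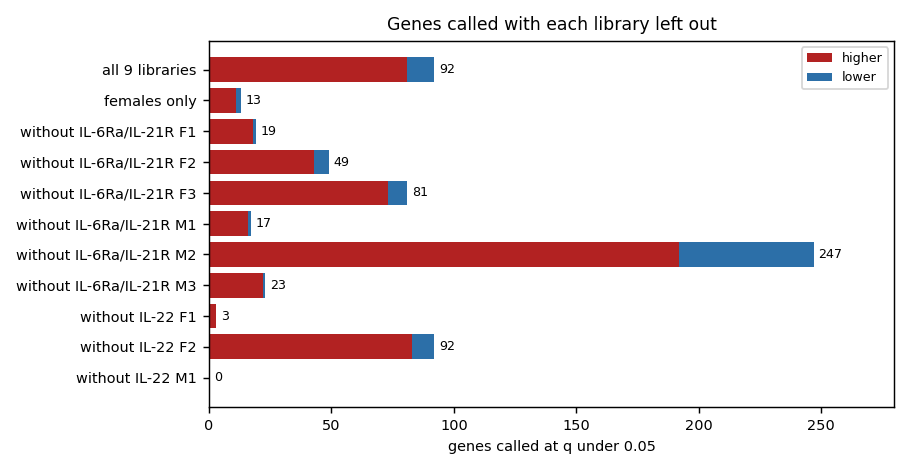
Number of genes called at q under 0.05 (horizontal axis) with all 9 libraries, with females only, and with each library left out in turn (vertical axis), split into genes higher (red) and lower (blue) with IL22 ko T cells. The count falls from 92 to 0 without IL22 ko M1 and rises to 247 without IL6Ra ko/IL21R ko M2. Without IL22 ko M1, as with females only, the group difference is one between females.

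The interferon-gamma response list had the most called genes by count. As a share of tested genes, 25% of it was called, against 28.6% of the MHC class I list. Of its 40 genes, 36 were tested. Of these, 34 had a log2 fold change above 0 (49.7% of all genes did), and 9 were called higher (0.652% of all genes) and 0 lower. All 3 IL22 ko libraries lay above all 6 others in 16 (3.78% of all genes). The list's median log2 fold change was 0.70 and was 0.49 without IL22 ko M1. Gbp2, a guanylate-binding protein that acts on membranes of intracellular microbes (ENSMUSG00000028270, chr3:142620602-142638008, + strand), had 254, 173 and 326 CPM in the IL22 ko libraries. In the IL6Ra ko/IL21R ko libraries it ranged from 70.2 to 129 CPM with a median of 92.5, and the groups did not overlap (log2 fold change 1.40 ± 0.21, q = 0.0199). Fcgr4, an activating receptor for IgG (ENSMUSG00000059089, chr1:171018920-171029761, + strand), stood at 376, 232 and 377 CPM against 105 to 175 CPM, median 152 (1.2 ± 0.19, q = 0.0214). IL22 ko F2 was the lowest of the 3 for both genes. Acod1, the enzyme that makes itaconate (ENSMUSG00000022126, chr14:103046977-103056573, + strand), had 33.5, 10.2 and 59.6 CPM against 3.53 to 8.40 CPM, median 6.17 (2.50 ± 0.41, q = 0.0228). Its lowest IL22 ko value lay close to the highest IL6Ra ko/IL21R ko value. For Gbp4, another guanylate-binding protein (ENSMUSG00000079363, chr5:105115767-105139586, - strand), the levels were 28.3, 18.2 and 30.6 CPM against 7.80 to 13.9 CPM (1.40 ± 0.22, q = 0.0228). Without IL22 ko M1 the log2 fold changes of Gbp2, Fcgr4, Acod1 and Gbp4 were 0.85, 0.93, 1.76 and 1.07, with q from 0.272 to 0.449.

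Serpina3g, an intracellular protease inhibitor, had 93.4, 31.4 and 91.3 CPM against 16.8 to 30.4 CPM (1.55 ± 0.29, q = 0.0398), and here IL22 ko F2 lay just above the IL6Ra ko/IL21R ko range. Further called genes of the list were Gbp3, Gbp8 and Gbp2b, named after their values were seen. Guanylate-binding protein genes and the Serpina3 genes have close copies, and the sources used here do not state how reads matching several copies were counted. Cxcl9, a chemokine that attracts T cells, had 332, 102 and 409 CPM against 54.7 to 157 CPM and did not pass (q = 0.0906); its IL22 ko F2 value lay within the IL6Ra ko/IL21R ko range. Cd274, the ligand of the inhibitory receptor PD-1, had 76.8, 37.1 and 117 CPM against 24 to 46.4 CPM (q = 0.0862), with the same overlap. Nos2, the inducible nitric oxide synthase, had 27, 0 and 119 counts against 0 to 3 (q = 0.0876). Irf1, a transcription factor that interferon induces, had a log2 fold change of -0.53 ± 0.17, q = 0.208, and Ciita, the switch of MHC class II genes, of 0.66 ± 0.34, q = 0.455. Serpina3g had 1.19 without IL22 ko M1 (q = 0.585). The type I interferon list had 0 of 29 tested genes called by edgeR and a median of 0.01. Without adjustment, 1 of the 29 passed a p of 0.05 in the upward and 2 in the downward direction. DESeq2 and limma-voom were run on all genes, and their counts of calls are in the closing section.

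Promoter windows of called genes from these lists are shown because they hold the letters of the interferon-stimulated response element, the DNA motif bound by interferon regulatory factors and the ISGF3 complex. The windows are RefSeq promoters on GRCm38.p6, 250 bases before to 50 after the start of transcription, written 5′ to 3′ on the strand of the gene, with the match in capitals. Gbp2 is at chr3:142620413-142620712 (+), Fcgr4 at chr1:171018676-171018975 (+), the lysosomal protease gene Ctss at chr3:95526536-95526835 (+) and the MHC class I gene H2-T23 at chr17:36032652-36032951 (-).
Gbp2: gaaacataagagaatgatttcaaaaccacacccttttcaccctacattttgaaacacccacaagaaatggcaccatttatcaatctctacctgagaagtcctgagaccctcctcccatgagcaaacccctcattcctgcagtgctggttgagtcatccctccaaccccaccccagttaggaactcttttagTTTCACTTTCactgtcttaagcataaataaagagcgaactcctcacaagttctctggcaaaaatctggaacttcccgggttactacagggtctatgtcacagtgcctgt
Fcgr4: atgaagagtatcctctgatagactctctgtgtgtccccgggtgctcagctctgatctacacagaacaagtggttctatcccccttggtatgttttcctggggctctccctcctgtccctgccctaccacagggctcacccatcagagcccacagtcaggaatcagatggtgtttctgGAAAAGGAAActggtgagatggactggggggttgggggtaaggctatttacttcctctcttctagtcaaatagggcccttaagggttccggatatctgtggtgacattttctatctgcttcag
Ctss: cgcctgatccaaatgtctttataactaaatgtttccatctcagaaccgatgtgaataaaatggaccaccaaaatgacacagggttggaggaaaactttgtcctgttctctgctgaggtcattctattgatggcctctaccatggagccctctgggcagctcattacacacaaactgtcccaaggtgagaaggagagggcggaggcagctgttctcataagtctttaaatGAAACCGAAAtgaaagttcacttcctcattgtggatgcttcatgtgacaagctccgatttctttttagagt
H2-T23: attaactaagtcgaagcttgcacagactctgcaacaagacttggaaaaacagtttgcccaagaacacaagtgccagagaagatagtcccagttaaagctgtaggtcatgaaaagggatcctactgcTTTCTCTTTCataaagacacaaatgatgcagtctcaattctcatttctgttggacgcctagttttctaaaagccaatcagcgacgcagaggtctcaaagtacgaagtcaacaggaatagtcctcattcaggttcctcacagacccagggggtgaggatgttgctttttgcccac
The matches begin 59, 73, 21 and 124 bases before the start of transcription in Gbp2, Fcgr4, Ctss and H2-T23. The motif was searched as GAAANNGAAA and, for the other strand, TTTCNNTTTC. It was present for 10 of the 66 genes called higher that have a window (15.2%) and for 0 of the 8 called lower, against 392 of the 9637 tested genes with a window (4.07%). The 10 genes were Gbp2, Gbp2b, Gbp3, Fcgr4, Ctss, H2-T23, Clec4d, Pilra, Tcirg1 and Vegfa. Clec4d, Pilra and Tcirg1 were named by this match after their values were seen. Gbp2b and Gbp3 were named as called list members, also after their values were seen. The palindrome TTCNNNGAA, the core of the gamma-activated sequence, was present for 2 of the 66 (3.03%), Klra2 and Serpina3g, and for 789 of the 9637 (8.19%). No gene called higher held both motifs, and a match in a window is a description of its letters, not a measured binding site.

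Of 21 tested genes of MHC class I presentation, 20 had a log2 fold change above 0. With IL22 ko T cells, 6 were called higher (0.652% of all genes were). All IL22 ko libraries lay above the others in 16 (3.78% of all genes). The median log2 fold change was 0.53, and 0.34 without IL22 ko M1. Tap1, a subunit of the pump that brings peptides to MHC class I, had 404, 325 and 458 CPM against 170.3 to 255 CPM, median 236 (0.83 ± 0.14, q = 0.029). Its neighbour on the opposite strand, Psmb9, cannot be told apart from it where the 2 genes overlap, since the libraries carry no strand. The same holds for Il1a, Slc2a1, Tgm2, Gbp2, H2-T23, Rab11fip1, Cnrip1, Psmb10 and Fn1, which also have a gene on the opposite strand. H2-T23, a nonclassical class I chain read by natural killer receptors, had 529, 523 and 587 CPM against 292 to 396 CPM (0.62 ± 0.11, q = 0.025). Psmb10, a catalytic subunit of the immunoproteasome, had 200.0, 196 and 249 CPM against 130.2 to 169.8 CPM (0.53 ± 0.10, q = 0.0459). H2-Q6, a further nonclassical chain, had 133, 137 and 168 CPM against 49.3 to 92.8 CPM (1.00 ± 0.16, q = 0.0228). The other called genes, H2-Q7 and H2-Q4, are class I genes related to it. How reads matching several of them were counted is not stated, so the level of each is uncertain. In H2-T23 the 3 libraries of the IL22 ko group were close to each other. Without IL22 ko M1 the log2 fold changes of Tap1, H2-T23, Psmb10 and H2-Q6 were 0.61, 0.51, 0.43 and 0.84 (q 0.437 to 0.564). In females alone H2-Q6 passed (0.84, q = 0.0371).

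For MHC class II, 11 of 12 tested genes had a log2 fold change above 0, with a median of 0.65 (0.45 without IL22 ko M1). All IL22 ko libraries lay above the others in 7 (3.78% of all genes), and 1 was called higher (0.652% of all genes were). The called gene was Ctss, the protease that trims the invariant chain, with 3954, 3724 and 5504 CPM against 2609 to 3519 CPM, median 2758 (0.63 ± 0.12, q = 0.0417). Its IL6Ra ko/IL21R ko M2 value was the highest of that group. Cd74, the invariant chain itself, had 28759.8, 29115 and 32040.0 CPM against 14274 to 27262 CPM, and H2-Ab1, a chain of the MHC class II molecule, had 14519, 14837 and 17162 CPM against 7322 to 13582 CPM. Neither passed (0.68 ± 0.17, q = 0.104 for Cd74 and 0.67 ± 0.17, q = 0.108 for H2-Ab1), although their IL22 ko libraries all lay above the IL6Ra ko/IL21R ko ones. Cd74 passed in 5 of 20 alternatives, females alone among them (0.64, q = 0.0371), and H2-Ab1 in 4 of 20. Without IL22 ko M1 the value of Ctss was 0.46 (q = 0.564). In bulk libraries, more cells of a type and more RNA per cell cannot be told apart.

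**Figure D3:**
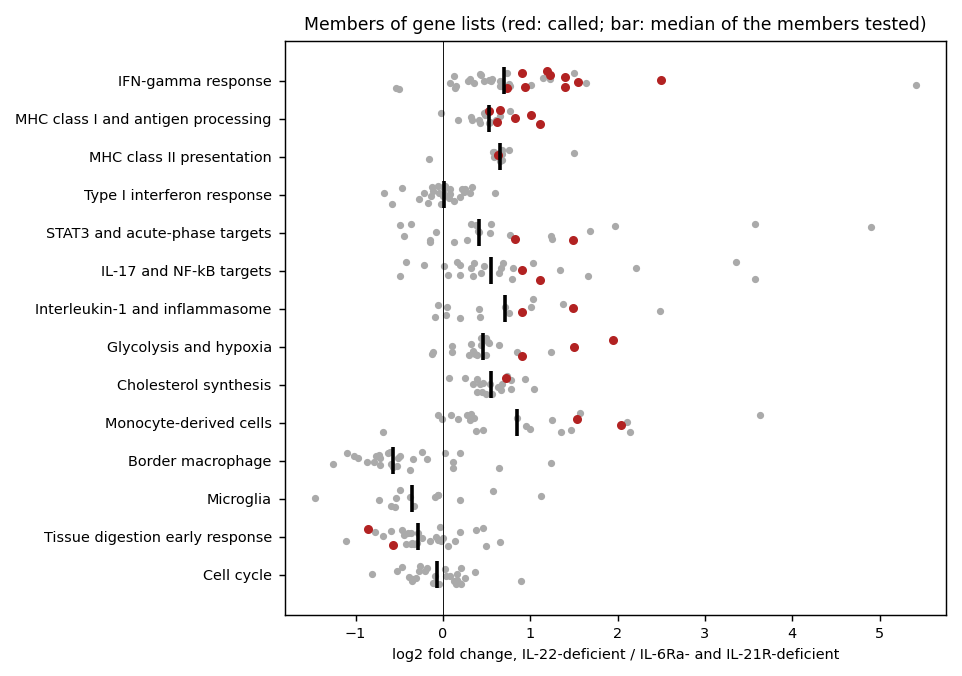
Log2 fold change of each tested member (points, red where called) of 14 gene lists, with the list's median as a bar. The medians of the interferon-gamma, MHC, interleukin-1, cholesterol and monocyte lists lie between 0.53 and 0.84, those of the border macrophage and digestion lists at -0.58 and -0.29, and the type I interferon list at 0.01.

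Interleukin-1 family and NF-kB target genes mostly had values above 0, with Il1a, Il1rn and Ptgs2 called. Il1a, the alpha form of interleukin-1 (ENSMUSG00000027399, chr2:129299610-129309972, - strand), had 57.7, 71.1 and 78.6 CPM against 31.3 to 40.9 CPM, median 38.9 (0.90 ± 0.13, q = 0.0182). Il1rn, the natural antagonist of the interleukin-1 receptor, had 211, 150.3 and 408 CPM against 57.0 to 137 CPM, median 84.1 (1.49 ± 0.25, q = 0.025). An agonist and the antagonist of the same receptor were thus both higher, with groups that did not overlap. Il1b, the beta form, had 777, 816 and 1899.9 CPM against 363 to 1254 CPM, median 465, and did not pass (1.03 ± 0.33, q = 0.189); its highest IL6Ra ko/IL21R ko value came from M2. Ptgs2, the inducible cyclooxygenase of prostaglandin synthesis, had 420.1, 348 and 676 CPM against 146 to 341 CPM (1.12 ± 0.23, q = 0.0497), with IL22 ko F2 just above the highest IL6Ra ko/IL21R ko library. In the interleukin-1 and inflammasome list, 13 of 15 genes had values above 0 (49.7% of all genes did) and 2 were called higher (0.652% of all genes were). At an unadjusted p under 0.05, 9 were higher (7.85% of all genes). Without IL22 ko M1, 3 passed that p in either direction (6.21% of all genes), and the median of 0.71 was 0.28. Among targets of IL-17 and of NF-kB, 23 of 26 were above 0 and 2 were called, to be set beside the same shares. At an unadjusted p under 0.05, 14 were higher and 1 lower, and 9 passed in either direction without IL22 ko M1. Their median was 0.55 (0.45 without IL22 ko M1). Il1a, Il1rn and Ptgs2 had 0.79, 1.09 and 0.79 without that library (q 0.353 to 0.622). In females alone Ptgs2 passed (0.79, q = 0.0391).

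Among targets of STAT3, the signal transducer of IL-6, IL-21, IL-22 and IL-10 receptors, 17 of 23 tested genes were above 0 (49.7% of all genes were). Their median was 0.42 (0.33 without IL22 ko M1). Called higher were Myc and Il1rn (0.652% of all genes were). Myc, a transcription factor of growth, had 48.3, 41.1 and 53.4 CPM against 23.4 to 33.2 CPM, median 26.6 (0.83 ± 0.12, q = 0.0182), and its log2 fold change was 0.84 without IL22 ko M1 (q = 0.288). Stat3 itself had 217, 197 and 237 CPM against 113 to 172 CPM and did not pass (0.56 ± 0.12, q = 0.0711), and Socs3, its feedback inhibitor, had -0.44 ± 0.16, q = 0.25. The receptors for T cell cytokines had 15 of 23 tested genes above 0 and 0 called by edgeR, with 7 above 0 and 0 below 0 at an unadjusted p below 0.05 (1 in either direction without IL22 ko M1). Il10rb, which the receptors of IL-22 and IL-10 share, had 227, 206 and 209 CPM against 202 to 267 CPM (-0.22 ± 0.10, q = 0.397). Il6ra and Il21r, the receptors missing from the donor T cells of the other group, had log2 fold changes of -0.05 ± 0.11, q = 0.894 and 0.26 ± 0.10, q = 0.285 in the macrophages, and Il6st, the signalling chain of the IL-6 receptor, of -0.14 ± 0.24, q = 0.876.

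Monocyte-derived cell genes stood above and border macrophage genes below, without the border genes passing the test. Of 23 monocyte-derived cell genes tested, 20 had values above 0 and 2 were called, with a median of 0.84 that was 0.23 without IL22 ko M1. At an unadjusted p under 0.05, 9 were higher (7.85% of all genes) and 1 lower. Without IL22 ko M1, 2 passed that p in either direction (6.21% of all genes). Itgal, the alpha chain of the leukocyte integrin LFA-1, had 102, 86.5 and 176 CPM against 34.3 to 55.5 CPM, median 38.1 (1.54 ± 0.21, q = 0.0182, and 1.10 with q = 0.278 without IL22 ko M1). Fn1, the matrix protein fibronectin, had 39.4, 50.8 and 206 CPM against 11.0 to 65.4 CPM (2.04 ± 0.41, q = 0.0497); IL6Ra ko/IL21R ko M2 lay above IL22 ko F1 and F2, and the value was 1.56 without IL22 ko M1 (q = 0.647). Ly6c2 and Ccr2, which mark inflammatory monocytes, had 1.00 ± 0.98, q = 0.747 and 0.31 ± 0.13, q = 0.326. Of 27 border macrophage genes, 21 had values below 0 and 17 were lower at an unadjusted p under 0.05 (632 of all genes, 5.09%), 2 were higher at that level, and 0 were called by edgeR. Such a p was reached by 7 of the 27, in either direction, without IL22 ko M1 (6.21% of all genes). Their median was -0.58, and -0.34 without IL22 ko M1. Cbr2, a carbonyl reductase of resident macrophages, had 699, 759.7 and 480.1 CPM against 878 to 1241 CPM, median 1112 (-0.74 ± 0.17, q = 0.0725), groups that did not overlap. Folr2, a folate receptor of resident macrophages, had -0.72 ± 0.17, q = 0.0799, Cd163, the haemoglobin scavenger receptor, -0.58 ± 0.21, q = 0.251, Lyve1, a hyaluronan receptor, -0.97 ± 0.41, q = 0.342, and Mrc1, the mannose receptor, -0.24 ± 0.16, q = 0.583.

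The IL6Ra ko/IL21R ko libraries were spread in these lists. The mean log2(CPM + 1) of the monocyte-derived cell genes was 5.02, 5.46 and 5.97 in F1, F2 and M2, and 4.44, 4.29 and 4.26 in F3, M1 and M3. The border macrophage genes were at 8.98, 8.88 and 8.75 in F1, F2 and M2, and at 9.52, 9.38 and 9.48 in F3, M1 and M3. The IL22 ko libraries had 5.55, 5.57 and 6.59 for the monocyte list and 8.77, 8.92 and 8.61 for the border list. The ranges of the groups overlapped in both lists. Slc40a1, the iron exporter, had 83.8, 59.9 and 47.9 CPM against 46.0 to 463 CPM, median 267, and did not pass (-2.04 ± 0.61, q = 0.163). Ccl24, a chemokine for eosinophils, had -1.61 ± 0.49, q = 0.175, and Siglech, a lectin of microglia and plasmacytoid dendritic cells, -1.47 ± 0.50, q = 0.22.

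Genes of glucose use and of the low-oxygen response had 20 of 22 tested values above 0, and 3 were called higher (0.652% of all genes were). At an unadjusted p under 0.05, 16 were higher (7.85% of all genes). Without IL22 ko M1, 5 passed that p in either direction (6.21% of all genes). Their median was 0.46, and 0.20 without IL22 ko M1. Slc2a1, the glucose transporter GLUT1 (ENSMUSG00000028645, chr4:119108711-119137983, + strand), had 73.5, 64.1 and 132 CPM against 26.6 to 47.3 CPM, median 29.0 (1.5 ± 0.20, q = 0.0182). IL22 ko M1 was the highest library, and F1 and F2 also lay above the IL6Ra ko/IL21R ko range. Hilpda, a lipid droplet protein that low oxygen induces, had 62.5, 66.6 and 104 CPM against 29.8 to 52.7 CPM (0.90 ± 0.16, q = 0.0278). Vegfa, the growth factor of vessels, had 86.5, 46.9 and 129 CPM against 12.9 to 51.8 CPM (1.95 ± 0.40, q = 0.0497), and IL6Ra ko/IL21R ko F3 lay above IL22 ko F2. The values without IL22 ko M1 were 1.17, 0.73 and 1.08 (q 0.288 to 0.654). In females alone Slc2a1 passed (1.17, q = 0.0371). Of 20 tested genes of cholesterol synthesis, all 20 had values above 0 (49.7% of all genes did). Of these, 13 were higher at an unadjusted p under 0.05 (7.85% of all genes). Without IL22 ko M1, 3 of the 20 passed that p in either direction (6.21% of all genes). Their median was 0.55, and 0.38 without IL22 ko M1.

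Several of the largest rises belonged to other lists or to none. The alternative activation list had 16 of 22 tested genes above 0 and 3 called (Tgm2, Myc and Arg1), with a median of 0.46 that was 0.14 without IL22 ko M1. The TGF-beta list had 14 of 16 above 0. The complement list had 11 of 16 above 0 and 1 called (Itgax), and the Fc-gamma receptor list 5 of 5 and 1 (Fcgr4). Nr4a3, an orphan nuclear receptor that activated macrophages induce early (ENSMUSG00000028341, chr4:48045153-48086447, + strand), had 113, 97.3 and 251 CPM against 31.2 to 78.7 CPM, median 35.3 (1.91 ± 0.24, q = 0.0182). Its highest IL6Ra ko/IL21R ko value came from M2, and the next was 36.6 CPM. Tgm2, a transglutaminase of alternatively activated macrophages, had 91.3, 58.6 and 171 CPM against 18.5 to 44.2 CPM (2.0 ± 0.29, q = 0.0182). Plaur, the urokinase receptor, had 52.8, 52.7 and 163 CPM against 14.9 to 37.7 CPM (1.87 ± 0.28, q = 0.0182). Tlr12, a sensor of profilin, had 59.3, 47.3 and 88.6 CPM against 18.7 to 31.0 CPM (1.55 ± 0.21, q = 0.0182). Rab11fip1, an adaptor of recycling endosomes, had 13.5, 18.0 and 35.1 CPM against 5.10 to 9.88 CPM (1.62 ± 0.29, q = 0.0343). Without IL22 ko M1, Nr4a3, Tgm2, Plaur, Tlr12 and Rab11fip1 had 1.60, 1.55, 1.30, 1.09 and 0.95 (q 0.272 to 0.609). In females alone Nr4a3 (1.61, q = 0.00471) and Tgm2 (1.55, q = 0.049) passed. Itgax, an integrin chain of the complement receptor CR4, had 142, 107 and 373 CPM against 32 to 112 CPM (1.73 ± 0.34, q = 0.0459), where the highest IL6Ra ko/IL21R ko library lay above IL22 ko F2, and 1.18 without IL22 ko M1 (q = 0.619). Ptprc, the leukocyte antigen CD45, had 524, 541 and 636 CPM against 378 to 445 CPM (0.50 ± 0.09, q = 0.0417), and was the 1 called gene of the 10 macrophage-defining genes; it had 0.37 without that library (q = 0.564). The gene with the lowest q of all was Slc15a3, a transporter of bacterial peptides out of endosomes, named after its value was seen, with 316, 262 and 402 CPM against 154 to 211 CPM (0.89 ± 0.09, q = 0.00631).

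**Figure D4:**
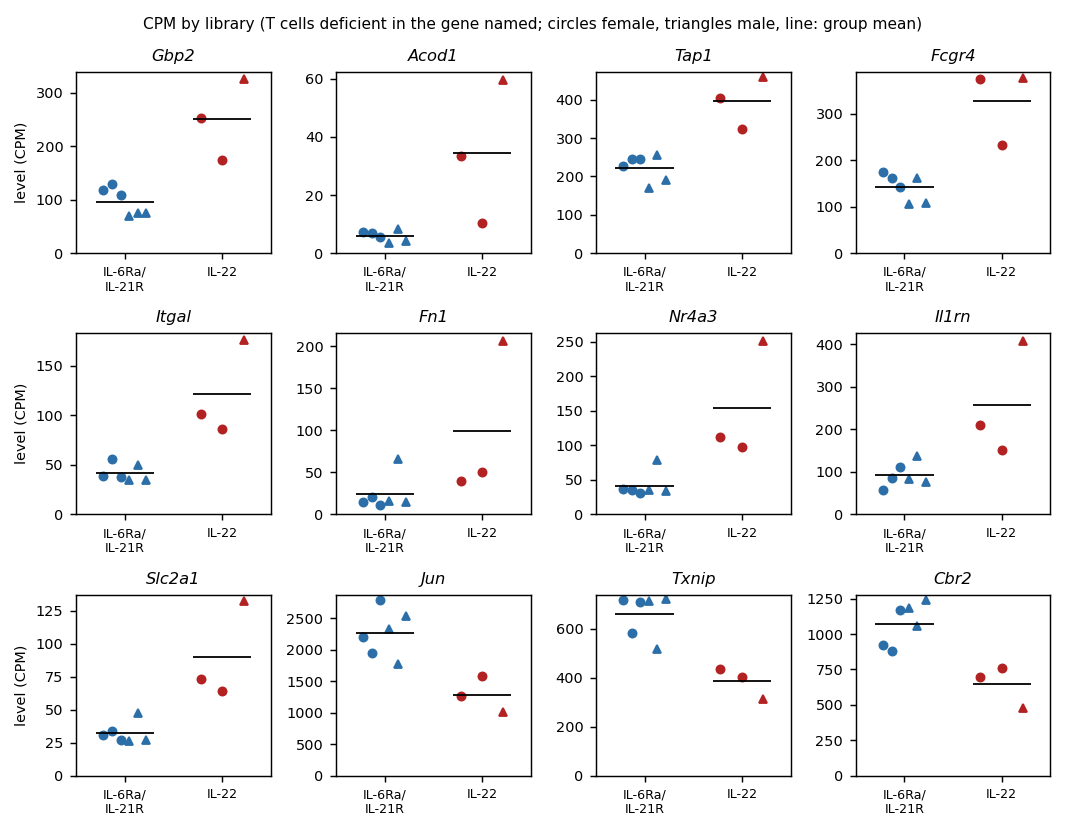
CPM (vertical axes, from 0) of 12 named genes in each library of the IL6Ra ko/IL21R ko group (blue) and the IL22 ko group (red); circles are females, triangles males, lines group means. IL22 ko M1 is the highest library for Gbp2, Acod1, Tap1, Fcgr4, Itgal, Fn1, Nr4a3, Il1rn and Slc2a1, for Fcgr4 with IL22 ko F1 close to it. Jun, Txnip and Cbr2 are lower in the 3 IL22 ko libraries than in the 6 others, Cbr2 without passing the test.

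Genes lower with IL22 ko T cells were fewer, and the 9 named by size were protein-coding genes of varied roles. Jun, a subunit of the AP-1 transcription factor (ENSMUSG00000052684, chr4:95049034-95052222, - strand), had 1260.3, 1591 and 1010.1 CPM against 1783 to 2791 CPM, median 2263 (-0.86 ± 0.16, q = 0.0427). Rhob, a small GTPase that is induced early after stress, had 842, 877 and 798 CPM against 1044 to 1474 CPM (-0.58 ± 0.12, q = 0.0497). Both belong to the list of genes that respond to tissue digestion. In it, 23 of 30 tested values were below 0 and 2 were called lower (0.0886% of all genes were). All IL22 ko libraries lay below the others in 8 (2.5% of all genes). The list's median of -0.29 was -0.15 without IL22 ko M1. The part of tissue handling in these values was not tested. Txnip, an inhibitor of thioredoxin and of glucose uptake, had 438, 403 and 316 CPM against 519 to 721 CPM, median 711 (-0.81 ± 0.14, q = 0.025). Jun and Txnip each have a gene on the opposite strand, Junos and Gm15441, whose reads cannot be told apart where they overlap. Cnrip1, a protein that binds cannabinoid receptor 1, had 9.57, 9.67 and 8.21 CPM against 13.4 to 20.8 CPM (-1.03 ± 0.19, q = 0.0356), and Foxred2, an oxidoreductase of the endoplasmic reticulum, had 45.1, 48.1 and 45.4 CPM against 64.6 to 80.3 CPM (-0.64 ± 0.10, q = 0.0228). Spg20, Fam43a, Gprc5c and Ip6k1 fell by 0.72, 0.67, 0.65 and 0.47 on the log2 scale. Without IL22 ko M1, Jun, Rhob, Txnip, Cnrip1 and Foxred2 had -0.70, -0.58, -0.67, -0.98 and -0.57 (q 0.391 to 0.449).

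Markers of other cell types differed between libraries. Ltf, the neutrophil protein lactoferrin, was called higher, but its counts were 0, 3 and 224 in the IL22 ko libraries and 0 to 2 in the others, with nearly all of its counts in IL22 ko M1. S100a8 and S100a9, which mark the same cells, had 71 and 69 counts in that library, at most 1 and 9 in IL22 ko F1 and F2, and at most 11 and 17 in the other group. Other neutrophil genes were mixed. Camp and Elane had 0, 3 and 16 and 3, 3 and 7 counts in the IL22 ko libraries, against at most 4 and 0. Ngp and Retnlg had 7, 3 and 2 and 0, 1 and 0 counts, against at most 11 and 9. Arg1, the arginase of alternative activation, had 3, 14 and 240 counts against 0 to 15, again mostly from IL22 ko M1. Ltf and Arg1 could not be tested without IL22 ko M1. F7 and Ly75, named after their values were seen, were called at low counts with 1 IL22 ko library at 0. Summed over the 15 neutrophil genes, of which 6 were tested and Ly6g was at 0 in every library, the level was 272 to 477 CPM with IL22 ko T cells and 277 to 782 CPM in the other group. As a mean of log2(CPM + 1) the same list was at 4.65 in IL22 ko M1 and at 2.55 and 3.14 in F1 and F2. It was at 2.55 to 2.87 in the other group. Of the 6 tested genes, 4 were higher at an unadjusted p under 0.05 (7.85% of all genes) and 1 was lower (5.09%). Without IL22 ko M1, 0 passed that p in either direction. Flt1, a receptor for Vegfa on endothelial cells, had 10, 15.2 and 13.6 CPM against 0.856 to 5.40 CPM (2.19 ± 0.43, q = 0.0479; 2.57, q = 0.391, without IL22 ko M1). The 12 endothelial genes summed to 185, 264 and 149 CPM in IL22 ko F1, F2 and M1. They summed to 101 to 163 CPM in the IL6Ra ko/IL21R ko libraries, and 1 of the 12 was called. Of the 12, 10 had values above 0, with a median of 0.65 (1.03 without IL22 ko M1). At an unadjusted p under 0.05, 3 were higher and 0 lower (5 in either direction without IL22 ko M1). Fibroblast genes summed to 772 to 1021 against 585 to 1664 CPM, and dendritic cell genes to 1026 to 1087 against 977 to 1253 CPM, with 0 called by edgeR in either (before adjustment, a p of 0.05 was passed upward by 0 and 2 genes and downward by 2 and 3). The 25 T cell genes summed to 170 to 240 against 112 to 223 CPM, much of it Cd4, which macrophages also carry, with 1707 to 2195 against 1243 to 2891 counts; 4 of the 25 were tested and 0 called. The part of other cells in the results was not tested.

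Of the remaining lists, chemokines (24 tested, median 0.23), chemoattractant receptors (15, -0.00), checkpoint ligands (13, 0.26), microglia genes (14, -0.35), iron handling (13, -0.11), uptake of dead cells (16, 0.07), lipid handling (21, 0.12) and cell cycle genes (28, -0.06) had 0 genes called by edgeR. At an unadjusted p under 0.05 these 8 lists had 7, 3, 6, 1, 3, 3, 7 and 1 genes higher and 2, 0, 0, 3, 5, 3, 1 and 1 lower, in the same order. The same lists without IL22 ko M1 had 6, 1, 2, 2, 1, 2, 1 and 0 in either direction, and medians of 0.37, 0.16, 0.36, -0.32, -0.09, 0.04, 0.14 and 0.06. As a mean of log2(CPM + 1), the chemoattractant receptor list lay between 6.87 and 6.98 in the IL22 ko libraries and between 6.62 and 6.77 in the IL6Ra ko/IL21R ko ones, ranges that did not overlap although its median fold change was near 0. The chemokine list lay between 6.64 and 6.94 against 6.20 and 6.62, also without overlap. This was not particular to chemokines and their receptors. By the same mean, the lists of STAT3 targets, T cell cytokine receptors, complement, Fc-gamma receptors and TGF-beta did not overlap either. Nor did those of cholesterol synthesis, glucose use, MHC class I and the interferon-gamma response. The checkpoint, microglia, iron, dead cell uptake, lipid and cell cycle lists overlapped. Adgre1 and Csf1r, the macrophage antigen F4/80 and the receptor of the survival factor CSF-1, had 0.10 ± 0.08, q = 0.665 and -0.09 ± 0.11, q = 0.809.

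Beside these groups, the 2 matched libraries without T cells and the 2 with total T cells give a scale for the levels, here as CPM scaled over all 27 libraries and with no test. Gbp2 was at 68.1 and 93.2 CPM without T cells, at 96.6 ± 25.5 (SD, n = 6) with IL6Ra ko/IL21R ko T cells, at 252 ± 75.3 (SD, n = 3) with IL22 ko T cells and at 276 and 446 with total T cells. Tap1 followed the same order, with 196 and 218, 224 ± 34.6, 397 ± 65.1 and 406 and 537 CPM. Fcgr4 was at 113 and 143, 143 ± 29.9, 329 ± 82.1 and 346 and 359 CPM. In these 3 genes the IL6Ra ko/IL21R ko mean lay near the libraries without T cells and the IL22 ko mean was nearer to those with total T cells. Nr4a3 was at 118 and 116 CPM without T cells, 42.1 ± 18.7 with IL6Ra ko/IL21R ko, 154 ± 84.2 with IL22 ko and 282 and 270.5 with total T cells. For Il1rn the values were 261 and 242, 92.5 ± 29.1, 257 ± 134 and 591 and 385 CPM, and for Plaur 81.5 and 97.7, 24.2 ± 8.28, 89.6 ± 63.3 and 166 and 136 CPM. Here the IL6Ra ko/IL21R ko mean lay below both libraries without T cells. Jun was at 1307 and 1283, 2278 ± 368, 1293 ± 300.0 and 952 and 895 CPM, and Txnip at 397 and 407, 665 ± 85.3, 387 ± 64.6 and 305 and 345 CPM, so that in both the IL6Ra ko/IL21R ko mean was above every other group. Of the 81 genes called higher, the mean with total T cells exceeded that without T cells in 74, and of the 11 called lower it was below in 9, on the log2(CPM + 1) scale. Over all 12419 genes tested it was above in 51.2% and below in 48.7%. These 4 libraries are all from females.

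**Figure D5:**
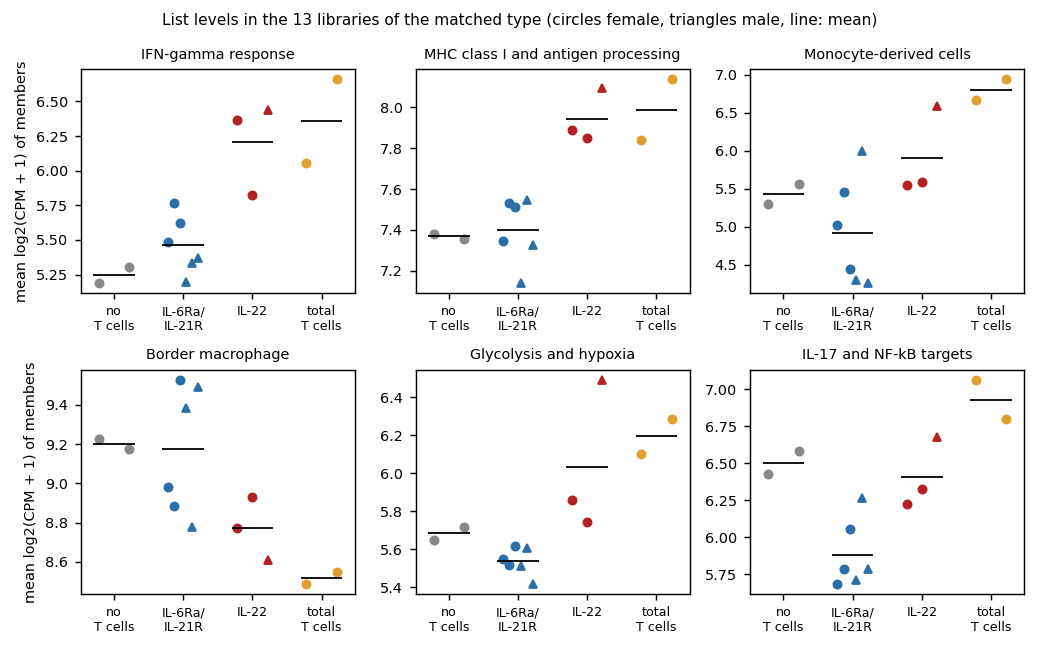
Mean log2(CPM + 1) of 6 gene lists (vertical axes, not from 0) in the 13 libraries of the matched type: without T cells (grey), with IL6Ra ko/IL21R ko (blue), IL22 ko (red) and total T cells (gold); circles are females, triangles males, lines means. For the interferon-gamma and MHC class I lists the IL22 ko libraries lie above all IL6Ra ko/IL21R ko libraries, and for the monocyte and border macrophage lists IL6Ra ko/IL21R ko F1, F2 and M2 lie toward the IL22 ko libraries.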

How the data were processed

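RNA of sorted dural macrophages was read as single ends of 75 nucleotides from an unstranded kit, per the labels' protocols. The submitters' processing notes name the aligner STAR 2.4.0j, the counter featureCounts, the genome GRCm38 and the package DESeq2 1.20.0. How reads matching several places were treated is not stated in the sources used here. The authors deposited whole-number read counts per gene under a file name that calls them normalized. Every count from 1 to 20 occurs in each column and totals differ, so they were used as raw counts. Of 41388 gene identifiers, 40254 have a symbol in GENCODE M21, and the others took 0.108% to 0.126% of counts. Columns were matched to groups by name and their numbers could not be linked to those of the sample titles. Whether libraries come from separate animals is not in the labels, and p-values then reflect only how these libraries vary, which may be technical.

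The 9 libraries were fitted with edgeR 4.0.16 (R 4.3.3, TMM scaling, group and sex as terms, quasi-likelihood test). Genes entered at an average normalized count of 10 or more, which left 12419, with Benjamini-Hochberg adjustment over all of them and calls at q under 0.05. CPM are counts divided by the library total times its TMM factor and multiplied by 1e+06. Totals of 10367421 to 16471442 counts set the precision. On simulated counts for these 9 libraries with 12262 genes, the test recovered 54.8% of 104 genes changed by 1 on the log2 scale and 80.9% of 94 changed by 2, with 9 false calls. The simulation drew each gene of each library independently, with no sex effect and no shift shared by many genes of a library. Its rates therefore do not cover the dependence on single libraries seen in the data. Alternatives used DESeq2 1.42.0, limma-voom 3.58.1, other scalings, filters and library sets. Genes were named by rule: the 10 largest rises and 10 largest falls among called genes whose CPM did not overlap (mean CPM of at least 10 in the higher group, predicted genes left out), up to 4 called genes of each of 39 lists by smallest q, and 34 genes whatever their result. The groups compared, the lists and the rules were chosen with earlier results of these data known, so no list is independent evidence. Promoters are from RefSeq on GRCm38.p6, matched by symbol. Some genes of the lists are not reported here.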

Additional observations from a re-analysis of the deposited data

Results flagged for a closer look

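In the IL6Ra ko/IL21R ko group, the 67 named genes and 4 library measures (71 in all) were screened for a library that stands apart from the others by Dixon's gap, which chance alone gives in about 1 of 20 groups, and 8 were found. IL6Ra ko/IL21R ko M2 was the library apart in 6 of them. Its Nr4a3 level was 78.7 CPM with the next library at 36.6, its Fn1 level 65.4 with the next at 20.6, its Il1b level 1254 with the next at 548, its Slc2a1 level 47.3 with the next at 34.1, and its Ctss level 3519 with the next at 2889. Its Il10rb level was the lowest of the group, 202 CPM, with the next at 244. In the same group F3 was apart in Vegfa, with 51.8 CPM against a next value of 22.1, and F1 in Ccr2, with 912 CPM against 688. The IL22 ko group, with 3 libraries, is too small for this screen. The cause of these values was not tested.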

How the results depend on the processing

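The number of genes called depended on the libraries and the tool, while no named gene past the threshold in either fit changed sign in the alternatives run. Against 92 calls, library totals alone as the scaling gave 56 (42 higher, 14 lower), DESeq2 378 (261 higher, 117 lower), no filter on low counts 725, females only 13, the 10 libraries with IL6Ra ko/IL21R ko M4 added 11, all 13 libraries of the matched type 164 and all 27 libraries 1. Leaving out 1 library at a time gave 0 to 247. Library totals made 75% of calls higher with IL22 ko T cells, against 88%. Scaling by relative log expression gave 80, limma-voom 84, no sex term 68 and a minimum mean count of 50 gave 113. Of 1331 values of single genes under alternatives, 920 kept their side of the threshold, 370 lost it and 41 gained it; 18 named genes that were not called passed in 1 to 5 of their alternatives; of 780 list medians, 43 moved beyond their spread. The medians of 11 of the 39 lists changed sign under at least 1 alternative, the arginine and itaconate list (0.34, lowest -0.11), type I interferon, chemoattractant receptors, cell cycle, mast cells and neutrophils among them, and the neutrophil median, 2.78, was 0.15 without IL22 ko M1. The cause of these dependences was not tested. No paired analysis was possible because the numbers in the data columns cannot be linked to the replicate numbers of the sample titles. Low counts in most libraries limit the values of Ltf, Arg1, F7, Ly75 and Nos2.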
